A study of Mus musculus with 35 samples.

Results

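Alveolar type 1 cell genes were followed in the RNA of whole mouse lungs. The 9 genes, Ager, Hopx, Pdpn, Aqp5, Rtkn2, Cldn18, Akap5, Clic5 and Emp2, were chosen by symbol as genes known from type 1 cells, and each matched 1 gene among the 54532 in the count and FPKM tables. Type 1 cells are the thin, flat cells that cover most of the alveolar surface and, with the capillary endothelium, form the barrier across which gas is exchanged. They are rich in caveolae, the membrane pits that are built from caveolin-1, the product of Cav1. Surfactant-secreting type 2 cells can give rise to them after injury.

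The 34 mice with a group were adults of at least 3 months and belonged to 3 genotypes. Control mice were wildtype B6/129SJ2, and Cav1-KO mice carried the global knockout Cav1(tm1Mls)/J. Cav1-RC mice carried the knockout together with Cav1 put back in endothelial cells, so that by design type 1 cells lack caveolin-1 in both mutant genotypes. Females and males of each genotype spent 6 weeks in normoxia (Nx) or in 10% oxygen (hypoxia, Hx), with 3 mice in each of the 12 groups except female Cav1-KO Nx and female Cav1-RC Nx, which had 2. The promoter of the Cav1-RC transgene is not given in the sources used here. Because whole lung was sequenced, fewer type 1 cells and less RNA per type 1 cell cannot be told apart in any value below, and p-values measure the spread between these mice.

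Libraries held 12425535 to 33343006 counts. Cav1, the targeted gene, lay between 976 and 1360 CPM (counts scaled to the library total) in the 12 Control libraries and between 1.62 and 3.93 in the 11 Cav1-KO libraries. It lay between 1.48 and 6.47 in the 11 libraries labelled Cav1-RC, overlapping Cav1-KO, so the mouse Cav1 count does not show the reconstitution. By western blot the study reported a low level of caveolin-1 protein in Cav1-RC lungs and almost none in Cav1-KO lungs. In 3 male libraries (Cav1-RC Nx replicates 1 and 2 and Control Hx replicate 2) the sex-specific genes went against the label. The animal numbers of 12 of the 34 mice appear in the source data of the study's western blots, and these 12 libraries stood apart from the other 22 on the first principal component. The blot list holds every hypoxic Cav1-KO mouse, every hypoxic male Control mouse, and replicate 1 of female Control Nx, female Control Hx and female Cav1-RC Nx. The median level of protein-coding genes over 6 kb relative to those under 2 kb, a log2 offset centred over the libraries, was -0.73 to -0.12 in listed libraries and -0.12 to 0.37 in the others. Mitochondrial transcripts made up 3.36% to 5.33% of counts in listed libraries and 1.22% to 2.65% in the others.

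Several of the 9 genes encode proteins of the type 1 cell membrane. Pdpn encodes podoplanin, a mucin-like glycoprotein that lymphatic endothelium and mesothelium also make. Aqp5 encodes a water channel, Cldn18 a tight junction claudin, Clic5 a chloride intracellular channel protein and Emp2 a tetraspan epithelial membrane protein. Ager encodes the receptor for advanced glycation end products, Hopx a homeodomain protein that does not bind DNA itself, and Akap5 an anchor for protein kinase A. In the mm10 coordinates of the files Pdpn spans chromosome 4, 143267431 to 143299564 on the minus strand, Emp2 chromosome 16, 10281749 to 10313968 on the minus strand, Clic5 chromosome 17, 44188584 to 44280172 on the plus strand and Akap5 chromosome 12, 76324891 to 76334153 on the plus strand. To show the regulatory sequence of the 4 genes that most comparisons turn on, the 150 bases before their start sites follow, 5′ to 3′ on the gene's strand, from RefSeq on GRCm38.p6. They lie at chr4:143299565-143299714 (Pdpn, minus strand), chr16:10313969-10314118 (Emp2, minus strand), chr17:44188422-44188571 (Clic5, plus strand) and chr12:76324741-76324890 (Akap5, plus strand).
Pdpn: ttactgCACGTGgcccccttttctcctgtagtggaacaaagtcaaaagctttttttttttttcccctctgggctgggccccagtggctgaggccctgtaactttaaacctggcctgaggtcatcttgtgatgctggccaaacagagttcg
Emp2: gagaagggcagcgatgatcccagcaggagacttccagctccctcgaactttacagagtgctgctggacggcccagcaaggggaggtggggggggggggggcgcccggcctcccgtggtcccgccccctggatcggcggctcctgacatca
Clic5: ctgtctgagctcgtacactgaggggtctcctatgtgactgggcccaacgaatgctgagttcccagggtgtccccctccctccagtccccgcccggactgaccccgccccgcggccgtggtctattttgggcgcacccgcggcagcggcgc
Akap5: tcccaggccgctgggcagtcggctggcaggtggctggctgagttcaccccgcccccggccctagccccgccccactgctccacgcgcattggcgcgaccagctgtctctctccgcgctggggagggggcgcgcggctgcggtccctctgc
The capitals in Pdpn mark CACGTG, which holds the core of the hypoxia response element on both strands. That core, ACGTG or its reverse complement CACGT, lay in the 250 bases before the start in 16.6% of 32851 promoters and in 6 of the 10 entries found for 8 of the 9 genes. GGAATG, the TEAD motif, lay in 12.6% of promoters and TNAAGTG, an NKX2-1 motif, in 10.1%, both strands read, and each in 0 of the 10 entries. A match describes letters only, and no match says only that these letters are not in this window.

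All 9 genes were among the abundant genes of the lung, at or above the level of 94.2% of the genes that passed the count filter. Per unit of length, in FPKM, Ager was the most abundant (median 872, range 579 to 1107 over 34 libraries), followed by Hopx (median 338, range 268 to 487), Cldn18 (median 156, range 81.6 to 243) and Aqp5 (median 151, range 98.9 to 199). Emp2 (median 111, range 34.9 to 199) and Clic5 (median 111, range 45.4 to 169.7) did not differ beyond their spread. Akap5 (median 48.5, range 20.7 to 75.7), Pdpn (median 42.4, range 26.3 to 75.2) and Rtkn2 (median 40.3, range 24.4 to 48.9) were the lowest, with ranges that overlapped. The length behind the FPKM is the gene length of the files. It exceeds the longest annotated transcript for every one of the 9 genes but Pdpn, by the most for Emp2 (8644 against 3440 bases), and also for Ager (2141 against 1370 bases), Clic5 (8782 against 5862), Aqp5 (2599 against 1797) and Rtkn2 (5547 against 3970), so the order by FPKM rests on these lengths.

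The 9 genes differed in how far they ranged. Ager, Hopx, Aqp5 and Rtkn2 varied by a factor of 1.82 to 2.01 between the lowest and the highest library, Pdpn by 2.86, Cldn18 by 2.98, Akap5 by 3.66, Clic5 by 3.74 and Emp2 by 5.70. When the 12 groups were ordered by mean, all 11 neighbouring pairs overlapped for Ager, Pdpn, Aqp5, Rtkn2, Akap5 and Clic5, while 1 pair did not for Hopx and Cldn18 and 2 pairs did not for Emp2. Hopx overlaps the antisense gene Hopxos (median 1.3 FPKM), and their reads cannot be told apart here because featureCounts was run with its defaults, which do not use strand. Ager and Rtkn2 passed an adjusted p of 0.05 in none of the 18 comparisons within a sex and the 9 over both sexes described below (edgeR, lowest adjusted p 0.053 and 0.0581). By DESeq2 they passed in 3 and 2 of these comparisons.

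**Figure D1:**
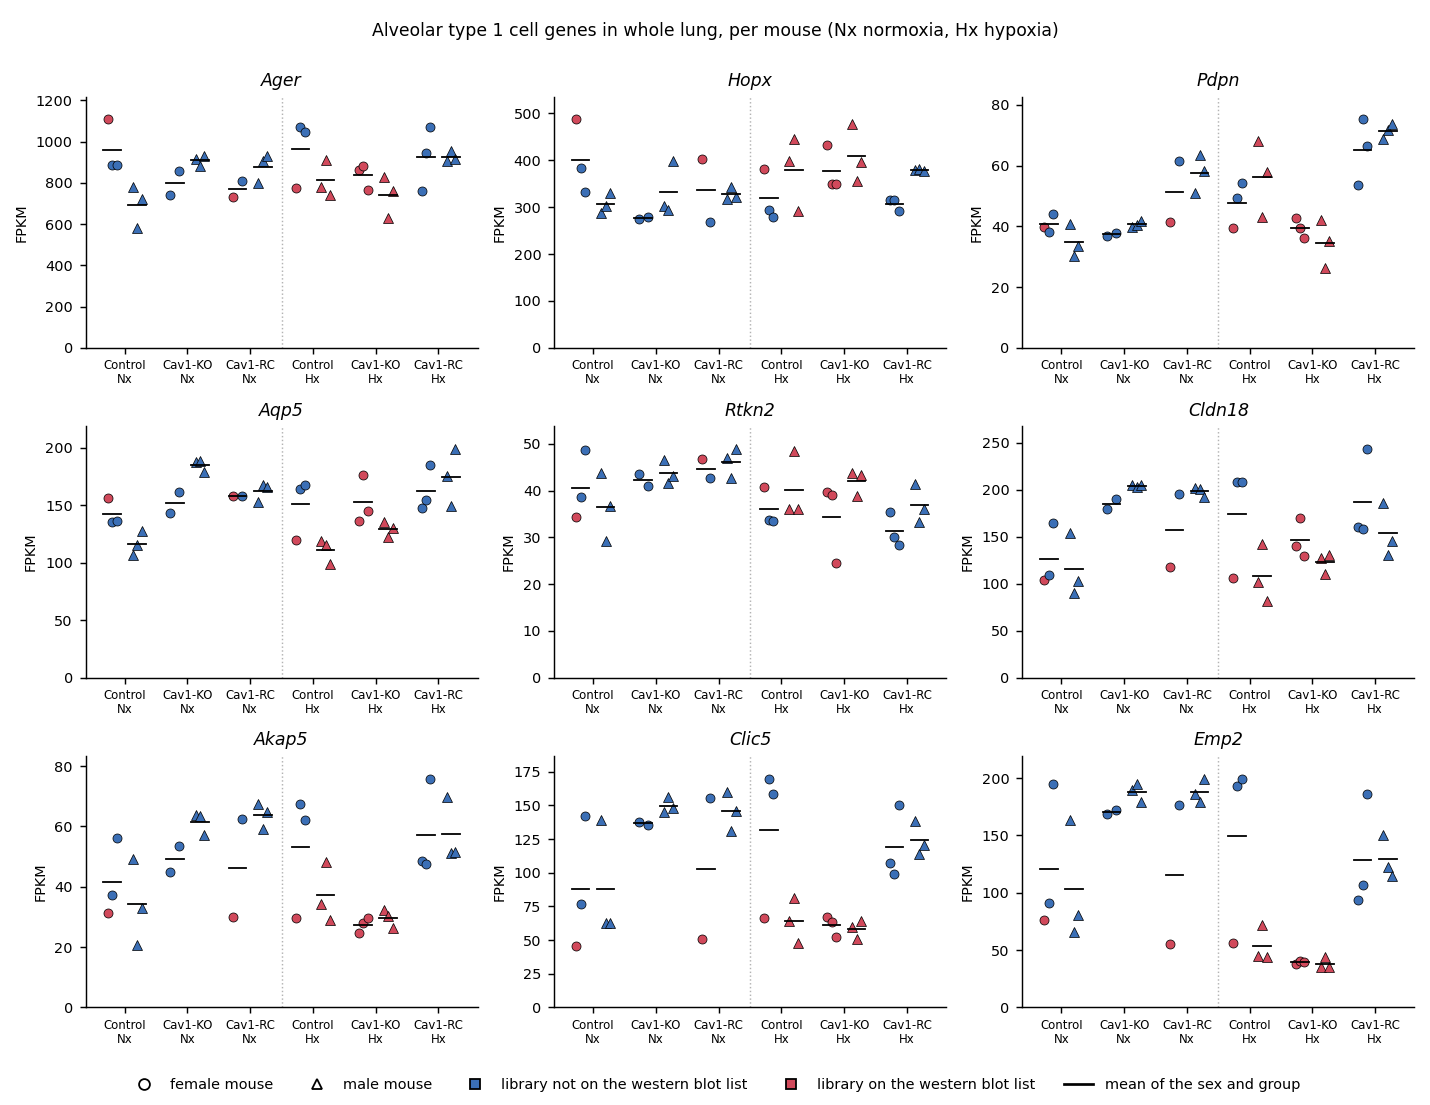
FPKM (y axis, from 0) of the 9 genes in each mouse, by genotype and oxygen level (x axis), with markers by sex, red for the 12 libraries on the western blot list and bars for group means. Pdpn lies higher in Cav1-RC, from 41.4 to 75.2 FPKM, than in Cav1-KO, from 26.3 to 42.8, and Emp2 lies low in the red points.

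Pdpn was higher in Cav1-RC than in Cav1-KO lungs at both oxygen levels, with overlapping groups in normoxia. In normoxia the 2 female Cav1-KO mice had 36.9 and 37.9 FPKM and the 3 males 39.8, 40.3 and 41.8. The 2 female Cav1-RC mice had 41.4 and 61.4 FPKM and the 3 males 50.9, 63.4 and 58.3. Only the female Cav1-RC mouse on the blot list, at 41.4, fell within the range of Cav1-KO taken over both sexes. The log2 fold change of Cav1-RC against Cav1-KO, averaged over the sexes, was 0.48 ± 0.11 (SE, n = 5 and 5, edgeR quasi-likelihood test, adjusted p = 0.0207). With the listed library left out it was 0.60 ± 0.07 (adjusted p = 0.000218). Within males it was 0.50 ± 0.08 (adjusted p = 0.00277), with Cav1-RC replicates 1 and 2, whose sex genes went against the label, counted as males. Pdpn was the 1 of the 9 genes past an adjusted p of 0.05, where 9.38% of all genes tested were, and 0 of the 9 were also over 2-fold (called, 4.28% of genes) by edgeR or DESeq2. Without the 2 male Cav1-RC libraries of discordant sex genes the value was 0.49 ± 0.13 (adjusted p = 0.0973), and without single libraries it was 0.33 to 0.60, no longer passing in 6 of 10 such fits (male Cav1-RC replicates 2 and 3, male Cav1-KO replicates 1 and 2 and both female Cav1-KO mice, adjusted p up to 0.0926). By limma on log2(FPKM + 1) it was 0.45 ± 0.11 (adjusted p = 0.0792).

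The other 8 genes had log2 fold changes between -0.28 (Emp2) and 0.13 (Hopx) in that comparison. Ager, the most abundant, was at -0.05, with a 95% interval of -0.24 to 0.14. Lymphatic endothelium and mesothelium, which also make podoplanin, were followed by marker lists. The summed level of 4 mesothelial markers was 196 to 228.7 CPM (median 214) in normoxic Cav1-KO and 136 to 204 (median 177) in normoxic Cav1-RC. That of 5 lymphatic markers was 440.3 to 632 (median 452) and 261 to 576 (median 537), overlapping and with the higher median in Cav1-RC. Upk3b and Wt1 of the mesothelial list fell, by 0.39 ± 0.08 and 0.56 ± 0.15 on the log2 scale (adjusted p = 0.0169 and 0.046), and Mmrn1 of the lymphatic list fell by 0.60 ± 0.11 (adjusted p = 0.00808). Within males, Cav1-RC replicates 1 and 2 of discordant sex genes included, Lyve1 of the lymphatic list rose by 0.50 ± 0.07 (adjusted p = 0.00168). The part of these cells in the Pdpn difference was not tested.

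In hypoxia the 3 female Cav1-KO mice had 42.8, 39.6 and 36.2 FPKM of Pdpn and the 3 males 42.0, 26.3 and 35.2. The Cav1-RC mice had 53.6, 75.2 and 66.3 (females) and 68.6, 71.8 and 73.8 (males). The groups did not overlap in either sex. The log2 fold change was 0.87 ± 0.11 (adjusted p = 7.19e-05) over both sexes, 0.71 ± 0.15 (adjusted p = 0.0173, no longer passing without any 1 of the 3 Cav1-KO libraries, adjusted p up to 0.0722) in females and 1.03 ± 0.16 (adjusted p = 0.00126) in males. Every hypoxic Cav1-KO library is on the blot list and no hypoxic Cav1-RC library is, so genotype and list cannot be told apart within this comparison. With the list as a term of 1 fit over the 34 libraries, whose effect is estimated from the 3 groups that hold both kinds, the log2 fold change was 0.57 ± 0.18 (adjusted p = 0.0504). In those 3 groups the listed mouse had 39.3 FPKM of Pdpn against 49.2 and 54.1 (female Control Hx), 41.4 against 61.4 (female Cav1-RC Nx) and 39.8 against 38.2 and 43.9 (female Control Nx). All 4 mesothelial markers rose in Cav1-RC against Cav1-KO in hypoxia (median log2 fold change 1.09, where 26.4% of all genes rose), with summed levels of 106 to 220.3 CPM in Cav1-KO and 187 to 390.5 in Cav1-RC. Summed lymphatic markers were at 195 to 285 CPM (median 246) in Cav1-KO and 245 to 320 (median 298) in Cav1-RC, where of the 5 genes Flt4 rose by 0.40 ± 0.10 (adjusted p = 0.00621) and Mmrn1 fell by 0.38 ± 0.10 (adjusted p = 0.00527). Their part in the Pdpn difference was not tested.

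**Figure D2:**
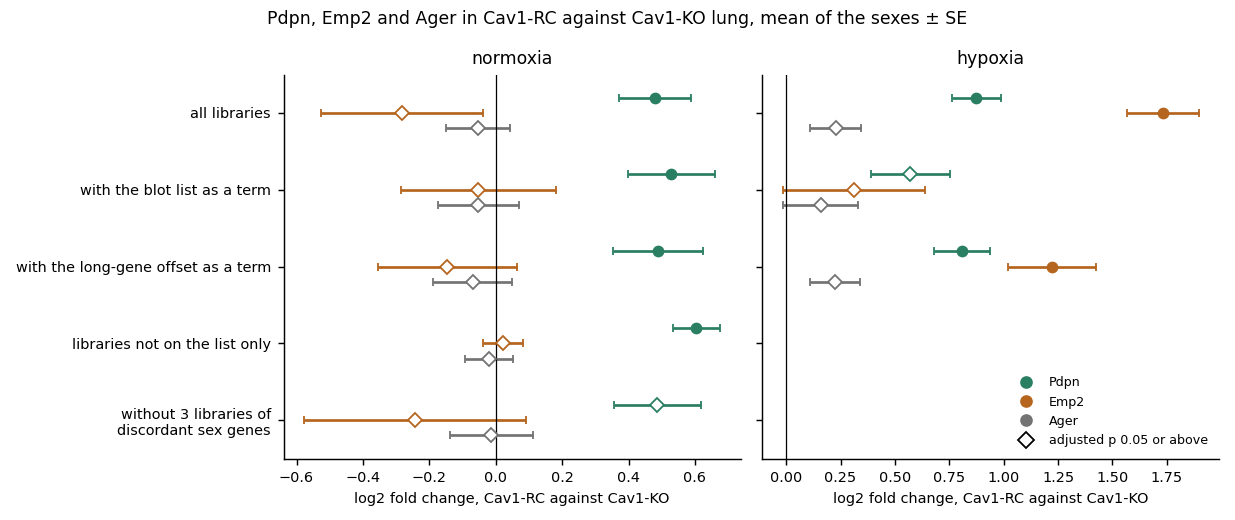
Log2 fold change of Cav1-RC against Cav1-KO, mean of the sexes ± SE (x axis), for Pdpn, Emp2 and Ager under the fits named on the y axis, with filled circles at an adjusted p under 0.05 and open diamonds above. In normoxia Pdpn lies between 0.48 and 0.60 in the 5 fits drawn, with an open diamond without the 3 libraries of discordant sex genes, while in hypoxia Emp2 goes from 1.73 to 0.31 with the list as a term.

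Against Control, normoxic Cav1-KO lungs had more Aqp5 and Cldn18. Aqp5 was at 156, 135 and 136 FPKM in female and 106, 115 and 127 in male Control mice, and at 143 and 161 in female and 188, 189 and 179 in male Cav1-KO mice. The males did not overlap, and the females did. Cldn18 was at 104, 109 and 164 in female and 154, 89.7 and 103 in male Control mice, and at 179.6 and 189 in female and 204, 203 and 204 in male Cav1-KO mice. The highest Control library of Cldn18 lay below the lowest Cav1-KO library. The log2 fold change over both sexes was 0.38 ± 0.09 (adjusted p = 0.0198) for Aqp5 and 0.68 ± 0.16 (adjusted p = 0.0198) for Cldn18, and without the 1 listed library 0.42 ± 0.08 (adjusted p = 0.00432) and 0.63 ± 0.16 (adjusted p = 0.0253). These were the 2 of 9 genes past an adjusted p of 0.05, where 13.2% of genes were, and 0 were called (5.78% of genes) by edgeR or DESeq2. Without single libraries Aqp5 no longer passed in 3 of 11 fits and Cldn18 in 6 of 11, with adjusted p up to 0.0999 and 0.0835. The libraries were male Cav1-KO replicates 1 and 2 and female Cav1-KO replicate 2 for both genes, and also female Cav1-KO replicate 1, male Control replicate 3 and female Control replicate 2 for Cldn18.

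Emp2, Clic5 and Akap5 did not pass the test in that comparison, at 0.68 ± 0.28 (adjusted p = 0.127), 0.69 ± 0.29 (adjusted p = 0.132) and 0.53 ± 0.21 (adjusted p = 0.116). Their Control libraries were widely spread, Emp2 from 66.1 to 195 FPKM against 169 to 195 in Cav1-KO. In males 6 of 9 genes were higher in every Cav1-KO library than in every Control library, where 19.6% of genes were, and the median of the 9 log2 fold changes was 0.67. In females 1 was, where 19.1% of genes were, and 2 were lower in every Cav1-KO library, where 16.2% of genes were, with a median of 0.08. These 2 were Ager (740.5 and 858 FPKM against 884 to 1107) and Hopx (274 and 279 against 333.3 to 487). The female minus male difference did not pass for any of the 9 (Aqp5 -0.57 ± 0.18, edgeR, adjusted p = 0.999) or for any other gene tested (0%). Without male Control Nx replicate 1, 4 genes were called in males in place of 0, while the share of all genes called went from 5% to 9.75%.

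In normoxic Cav1-RC against Control the log2 fold changes over both sexes were 0.53 ± 0.13 (adjusted p = 0.0552) for Pdpn, 0.32 ± 0.10 (adjusted p = 0.142) for Aqp5 and 0.55 ± 0.20 (adjusted p = 0.221) for Cldn18. By edgeR 0 of 9 genes passed an adjusted p of 0.05 (3.33% of genes did), 3 had an unadjusted p under 0.05, and by DESeq2 Pdpn and Aqp5 passed. Without the listed libraries Pdpn was at 0.65 ± 0.12 (adjusted p = 0.0182). In the fit with a term for the list 5 of 9 passed, where 11.4% of genes did, Pdpn at 0.55 ± 0.12 (adjusted p = 0.00284), Cldn18 at 0.59 ± 0.15 (adjusted p = 0.0121), Aqp5 at 0.32 ± 0.10 (adjusted p = 0.0301), Akap5 at 0.57 ± 0.17 (adjusted p = 0.0314) and Clic5 at 0.55 ± 0.18 (adjusted p = 0.0477). In males Pdpn was 30.2 to 40.6 FPKM in Control and 50.9 to 63.4 in Cav1-RC, a log2 fold change of 0.72 ± 0.14 (adjusted p = 0.0271) that no longer passed in 5 of 6 fits without a single library, all but that without Control replicate 1 (adjusted p up to 0.132). Without Cav1-RC replicates 1 and 2, whose sex genes went against the label, it was 0.75 ± 0.21 (adjusted p = 0.499), with 1 Cav1-RC mouse left. The comparisons of the 2 mutant genotypes with Control share the Control mice.

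In Control and Cav1-RC mice none of the 9 genes passed the edgeR test of hypoxia against normoxia over both sexes without further terms. In Control mice the log2 fold changes ran from -0.32 for Emp2 to 0.47 for Pdpn, 0 of 9 passed by edgeR (1.44% of genes did), 1 had an unadjusted p under 0.05 and 0 passed by DESeq2. Of the 6 hypoxic Control libraries 4 are on the blot list, and of the 6 normoxic ones 1 is. Once the list was a term of the fit 4 of 9 passed, where 18.6% of genes did, Pdpn at 0.62 ± 0.13 (adjusted p = 0.00232), Clic5 at 0.76 ± 0.20 (adjusted p = 0.0111), Akap5 at 0.66 ± 0.19 (adjusted p = 0.0169) and Cldn18 at 0.51 ± 0.17 (adjusted p = 0.0332), and Emp2 was at 0.33 ± 0.23 (adjusted p = 0.335). Between unlisted females alone, 2 hypoxic and 2 normoxic, 0 of 9 passed by edgeR (16% of genes did), 2 had an unadjusted p under 0.05, and Emp2 was at 0.42 ± 0.33. In male Control mice Pdpn was at 40.6, 30.2 and 33.6 FPKM in normoxia and 68.2, 43.0 and 57.9 in hypoxia, with no overlap, a log2 fold change of 0.71 ± 0.19 (adjusted p = 0.0437) that no longer passed in 4 of 6 fits without a single library, Hx replicates 1 and 3 and Nx replicates 2 and 3 (adjusted p up to 0.137). All 3 of these hypoxic males are on the blot list and no normoxic male is. The female values, 39.8, 38.2 and 43.9 and 39.3, 49.2 and 54.1, overlapped. In Cav1-RC the log2 fold changes ran from -0.43 for Rtkn2 to 0.32 for Pdpn, and 0 of 9 passed by edgeR (2.17% of genes did), 2 had an unadjusted p under 0.05, and Rtkn2 passed by DESeq2. Rtkn2 was 42.6 to 48.9 FPKM in normoxic and 28.3 to 41.4 in hypoxic Cav1-RC mice, with no overlap, at -0.43 ± 0.10 (adjusted p = 0.0581). With the list as a term it was at -0.42 ± 0.13 (adjusted p = 0.0473) and without listed libraries at -0.37 ± 0.11 (adjusted p = 0.0857).

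**Figure D3:**
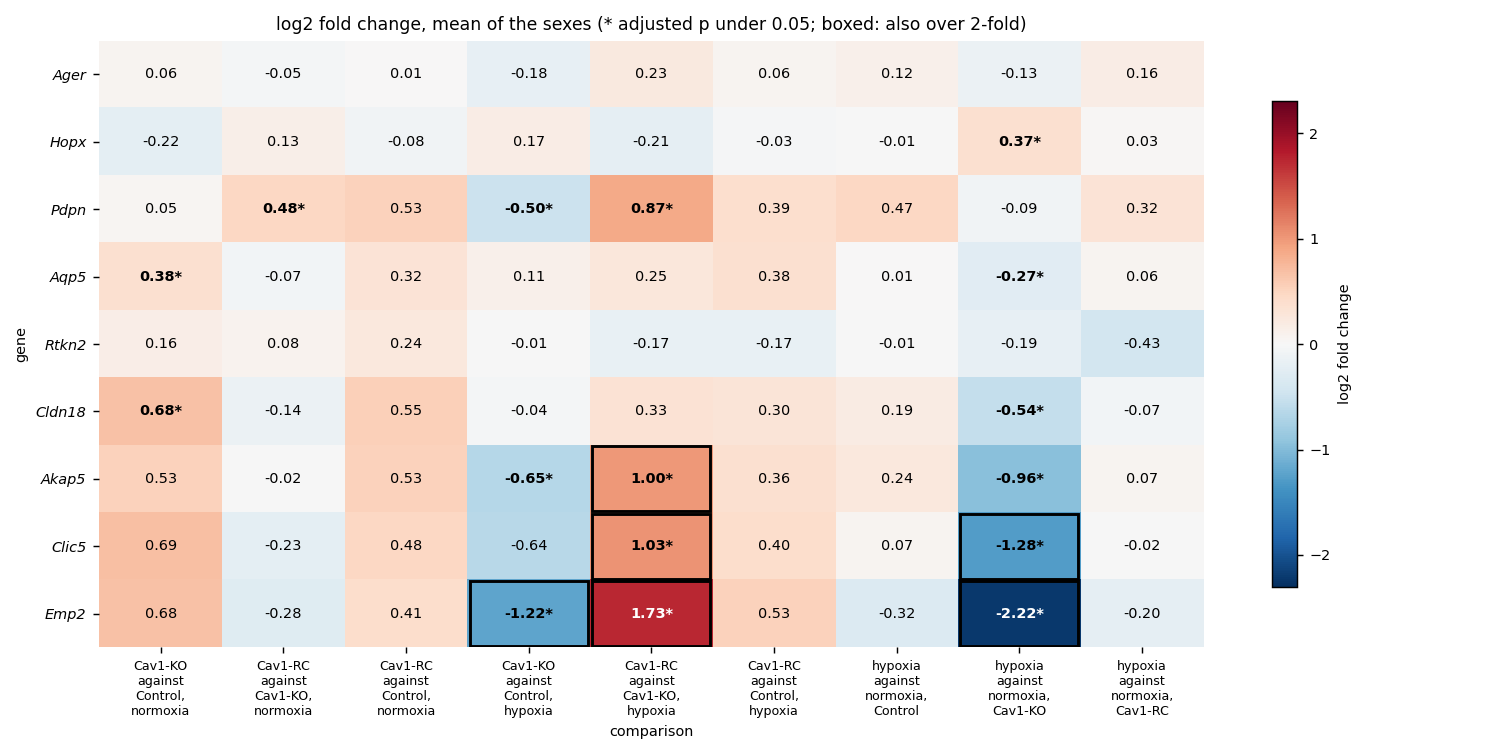
Log2 fold changes of the 9 genes (y axis) in the 9 comparisons over both sexes (x axis), coloured from lower to higher, with an asterisk at an adjusted p under 0.05 and a box where the change was also over 2-fold. Ager and Rtkn2 have no asterisk, and Emp2 reaches -2.22 in hypoxic against normoxic Cav1-KO.

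In Cav1-KO mice, hypoxic lungs had less Emp2, Clic5, Akap5, Cldn18 and Aqp5 and more Hopx than normoxic lungs. Emp2 was at 169 and 172 FPKM in female and 189.7, 195 and 179 in male normoxic mice, and at 37.6, 40.7 and 39.3 in female and 34.9, 44.2 and 35.1 in male hypoxic mice. Clic5 was at 136 to 156 FPKM in normoxia and 50.9 to 66.9 in hypoxia, and Akap5 at 44.7 to 63.8 and 24.6 to 32.3, again with no overlap. The log2 fold change was -2.22 ± 0.08 (adjusted p = 5.69e-08) for Emp2, -1.28 ± 0.08 (adjusted p = 3.87e-07) for Clic5 and -0.96 ± 0.08 (adjusted p = 2.37e-06) for Akap5. Cldn18 was at -0.54 ± 0.08 (adjusted p = 0.000108), Aqp5 at -0.27 ± 0.08 (adjusted p = 0.00971) and Hopx at 0.37 ± 0.11 (adjusted p = 0.011). Aqp5 no longer passed without female Cav1-KO Nx replicate 2 (adjusted p = 0.0579). Thus 6 of 9 genes passed an adjusted p of 0.05, where 61.7% of genes did, and 2 were called, where 17.6% were. Ager was at 740.5 to 931 FPKM in normoxia and 631 to 882 in hypoxia, Pdpn at 36.9 to 41.8 and 26.3 to 42.8, and Rtkn2 at 41.1 to 46.6 and 24.4 to 43.7, all with overlap.

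All 6 hypoxic Cav1-KO libraries are on the blot list and none of the 5 normoxic ones is, so oxygen and list cannot be told apart in this comparison. With the list as a term, 0 of 9 genes passed by edgeR (1.22% of genes did), with Emp2 at -0.81 ± 0.33 (adjusted p = 0.239), Clic5 at 0.08 ± 0.28 and Akap5 at -0.07 ± 0.27. Listed and other mice of 1 group, alike in sex, genotype and oxygen, also differed in Emp2, Clic5, Akap5, Cldn18 and Hopx. In female Control Hx the listed mouse had 56.4 FPKM of Emp2 against 193 and 199, in female Cav1-RC Nx 55.2 against 177, and in female Control Nx 75.9 against 90.8 and 195. Clic5 was at 66.5 against 159 and 170, at 51.0 against 155, and at 45.4 against 76.6 and 142 in the same groups. Hopx was higher in the listed mouse, at 382 against 280 and 294, at 404 against 268, and at 487 against 333.3 and 383. Akap5 and Cldn18 were lower in the listed mouse of each group, at 29.7 to 31.4 and 104 to 118 FPKM against 37.4 to 67.3 and 109 to 208. Aqp5 did not follow, being lower in the listed mouse of female Control Hx (119.9 against 164 and 168), higher in female Control Nx (156 against 135 and 136) and level in female Cav1-RC Nx (158.3 against 158.2).

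Among hypoxic mice, Emp2 (1.73 ± 0.16, adjusted p = 1.01e-05), Clic5 (1.03 ± 0.13, adjusted p = 4.87e-05), Akap5 (1.00 ± 0.14, adjusted p = 9.13e-05) and Pdpn were higher in Cav1-RC than in Cav1-KO. These were 4 of 9 genes at an adjusted p under 0.05, where 52.6% of genes passed, and all but Pdpn were called (14.7% of genes). With the list as a term 0 of 9 passed by edgeR (7.98% of genes did), Emp2 was at 0.31 ± 0.33 and Clic5 turned to -0.34 ± 0.28. Without male Cav1-RC Hx replicate 1 or female Cav1-RC Hx replicate 3 fewer than 3 were called, down to 1. Between Cav1-KO and Control in hypoxia, Emp2 (-1.22 ± 0.26, adjusted p = 0.0163), Akap5 (-0.65 ± 0.19, adjusted p = 0.0424) and Pdpn (-0.50 ± 0.14, adjusted p = 0.0398) fell, 3 of 9 where 14.7% of genes passed, and Emp2 was called (4.14% of genes). Within listed libraries alone these were at -0.51 ± 0.15 (adjusted p = 0.117), -0.23 ± 0.15 (adjusted p = 0.42) and -0.36 ± 0.16 (adjusted p = 0.267), and with the list as a term at -0.65 ± 0.22 (adjusted p = 0.0456), -0.31 ± 0.18 (adjusted p = 0.235) and -0.39 ± 0.12 (adjusted p = 0.0289). Without single libraries Akap5 no longer passed in 10 of 12 fits (all but those without male Control replicate 3 or female Control replicate 1) and Pdpn in 9 of 12 (all but those without male Control replicate 2, female Control replicate 1 or male Cav1-KO replicate 1). Between Cav1-RC and Control in hypoxia 0 of 9 passed by edgeR (9.06% of genes did), 2 had an unadjusted p under 0.05, and Aqp5 (0.38 ± 0.12) passed by DESeq2.

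Each comparison was also made within 1 sex. In females in normoxia 0 of 9 genes passed an adjusted p of 0.05 by edgeR or DESeq2 in Cav1-KO against Control (0.122% of genes did), Cav1-RC against Cav1-KO (0.1%) and Cav1-RC against Control (0.137%), and 0 had an unadjusted p under 0.05, with 2 mice in each mutant group. In males in normoxia Aqp5 (0.67 ± 0.10, adjusted p = 0.0066) and Cldn18 (0.81 ± 0.20, adjusted p = 0.0356) rose in Cav1-KO against Control, 2 of 9 where 11.4% of genes passed, and among fits without a single library Cldn18 passed only in that without Control replicate 1. Pdpn was the 1 gene that rose in males in Cav1-RC against Cav1-KO (12.5% of genes passed and 7.26% rose). It was also the 1 that rose against Control (4.2% passed and 2.21% rose). Both tests count as males Cav1-RC replicates 1 and 2, whose sex genes went against the label. In hypoxic Cav1-KO against Control 0 of 9 passed by edgeR in females (0.808%, 3 at an unadjusted p under 0.05, and Akap5, Clic5 and Emp2 by DESeq2) and in males (1.6%, 2 at an unadjusted p under 0.05, and Pdpn by DESeq2). Without female Control Hx replicate 1, the listed Control library of the female comparison, Akap5, Clic5 and Emp2 were called, 3 of 9 where 23.9% of genes were, against 0.768% with it.

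In hypoxic Cav1-RC against Cav1-KO 4 of 9 genes rose in females, where 20.8% of genes passed, and 2 were called (8.98% of genes). Of these 4, Emp2 passed in all 6 fits without a single library, while Pdpn and Clic5 no longer passed in 3 (each Cav1-KO library) and Akap5 in 2 (Cav1-KO replicates 1 and 2), with adjusted p up to 0.0747. In males 5 of 9 rose, where 44.5% of genes passed and 21.6% rose. Aqp5 was added at 0.41 ± 0.13 (adjusted p = 0.0309), and 3 were called (14.8% of genes in either direction). Aqp5 no longer passed in 4 of 6 fits without a single library, Cav1-RC replicates 1 and 3 and Cav1-KO replicates 2 and 3 (adjusted p up to 0.0996). Hypoxia against normoxia in Cav1-KO gave 4 of 9 in females (38.2%, 2 called where 13.3% were) and 5 of 9 in males (55.1%, 3 called where 17.7% were). In females Hopx (0.44) no longer passed in 3 of 5 fits without a single library, Hx replicate 1 and both Nx mice (adjusted p up to 0.184). Emp2 fell in both sexes, at -2.13 ± 0.11 (adjusted p = 0.000389) in females and -2.31 ± 0.12 (adjusted p = 1.25e-05) in males. In Cav1-RC hypoxia gave 0 of 9 in females by edgeR or DESeq2 (0.0285%, 1 at an unadjusted p under 0.05), and in males Emp2 fell (-0.53 ± 0.12, adjusted p = 0.0297), 1 of 9 where 7.89% of genes passed, from 186, 179 and 199 FPKM to 151, 122 and 115 with no overlap. It no longer passed in 5 of 6 fits without a single library, all but that without Hx replicate 1 (adjusted p up to 0.0895). Without Nx replicates 1 and 2, whose sex genes went against the label, it was -0.62 ± 0.19 (adjusted p = 0.304), with 1 normoxic mouse left and 0.222% of genes passing. In Control females hypoxia gave 0 of 9 by edgeR or DESeq2 (0.0175%, 0 at an unadjusted p under 0.05), and in males 1 of 9, Pdpn (16%).

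Within males, whose hypoxic Control mice are all listed, Emp2 (1.26 ± 0.21, adjusted p = 0.00296), Clic5 (0.94 ± 0.19, adjusted p = 0.00624), Aqp5 (0.64 ± 0.13, adjusted p = 0.00756) and Akap5 (0.61 ± 0.20, adjusted p = 0.0435) were higher in hypoxic Cav1-RC than in hypoxic Control, 4 of 9 where 37% of genes passed, and Emp2 was called (9.9% of genes). Akap5 no longer passed in 5 of 6 fits without a single library, all but that without Control replicate 2. With the list as a term 0 were called, where 0.337% of genes were, and Emp2 was at -0.17 ± 0.38. In females, with 1 listed Control mouse of 3, 0 passed by edgeR (0.849% of genes did), 1 had an unadjusted p under 0.05 and 0 passed by DESeq2. The female minus male difference of Emp2 was -1.47 ± 0.59 (adjusted p = 0.229). Over the 9 comparisons 0 of 81 differences between the sexes passed an adjusted p of 0.05 by edgeR, and 10 had an unadjusted p under 0.05. No gene of the whole table passed in any of these 9 tests (0%), so the count says nothing particular of the 9 genes. Tests with male Control Hx or male Cav1-RC Nx counted as male some libraries whose sex genes went against the label.

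The response to hypoxia was also compared between genotypes. Emp2 (-1.91 ± 0.41, adjusted p = 0.00775), Clic5 (-1.35 ± 0.38, adjusted p = 0.0216), Akap5 (-1.20 ± 0.30, adjusted p = 0.0144), Cldn18 (-0.74 ± 0.26, adjusted p = 0.0488) and Pdpn (-0.57 ± 0.18, adjusted p = 0.0343) had a more negative log2 response in Cav1-KO than in Control, 5 of 9 where 20.2% of genes passed. Against Cav1-KO, the response of Cav1-RC was more positive for Emp2 (2.02 ± 0.31, adjusted p = 0.000193), Clic5 (1.25 ± 0.27, adjusted p = 0.00161) and Akap5 (1.02 ± 0.23, adjusted p = 0.00174), 3 of 9 where 42.8% of genes passed. Between Cav1-RC and Control 0 of 9 responses differed by edgeR (0.114% of genes did), and 1 had an unadjusted p under 0.05. The contrasts with Cav1-KO use its hypoxic libraries, which are all listed, and with the list as a term Emp2 alone passed, between Cav1-KO and Control (-1.13 ± 0.33, adjusted p = 0.0464), beside Clic5 between Cav1-RC and Control (-1.01 ± 0.29, adjusted p = 0.0285). In that fit 4.34% of genes passed between Cav1-KO and Control, 0.0151% between Cav1-RC and Cav1-KO and 10.5% between Cav1-RC and Control.

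Some of the 9 genes varied together across the 34 libraries. Log2 CPM of Clic5 and Emp2 correlated at r = 0.93, Akap5 and Clic5 at 0.92, Akap5 and Emp2 at 0.90 and Cldn18 and Clic5 at 0.87, while Hopx ran against these 4 (r = -0.60 to -0.44). With group means taken out, Clic5 and Emp2 were at 0.92 and Cldn18 and Emp2 at 0.91. These points share libraries, depth and the blot list. With the offset between long and short genes r was 0.89 for Clic5, 0.83 for Emp2, 0.74 for Akap5 and 0.71 for Cldn18, against 0.34 for Aqp5, 0.31 for Rtkn2, 0.13 for Pdpn, 0.07 for Ager and -0.70 for Hopx. Among the 22 unlisted libraries it was 0.74 for Rtkn2, 0.73 for Emp2, 0.71 for Clic5, 0.59 for Cldn18, 0.52 for Akap5, 0.08 for Aqp5, 0.03 for Ager, -0.19 for Pdpn and -0.42 for Hopx. Among the 12 listed libraries it was 0.49 for Clic5, 0.39 for Cldn18, 0.37 for Rtkn2, -0.05 for Akap5, -0.22 for Aqp5, -0.34 for Hopx, -0.35 for Pdpn, -0.51 for Emp2 and -0.71 for Ager, so the sign for Emp2 turned. Clic5, Emp2 and Akap5 are the longest of the 9 in the files (8782, 8644 and 6824 bases) and Hopx the shortest (1516 bases). The 3′ untranslated region made up 81.8% of the longest annotated transcript of Clic5, 78.3% of that of Cldn18, 78.0% of that of Emp2 and 61.3% of that of Akap5. It made up 59.8% of that of Hopx, 54.6% of that of Pdpn, 49.2% of that of Rtkn2, 28.5% of that of Aqp5 and 9.64% of that of Ager.

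With the offset as a term of the fit, a choice made after the data were seen, Emp2 in hypoxic against normoxic Cav1-KO was at -1.28 ± 0.25 (adjusted p = 0.00221) and Clic5 at -0.31 ± 0.18 (adjusted p = 0.285). Pdpn in Cav1-RC against Cav1-KO was then at 0.49 ± 0.13 (adjusted p = 0.0246) in normoxia and 0.81 ± 0.13 (adjusted p = 4.91e-05) in hypoxia. Cldn18 in normoxic Cav1-KO against Control was at 0.44 ± 0.16 (adjusted p = 0.0939) and Aqp5 at 0.43 ± 0.11 (adjusted p = 0.0116). In these comparisons Emp2, Pdpn and Aqp5 kept their side of the threshold with this term, and Cldn18 and Clic5 did not.

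**Figure D4:**
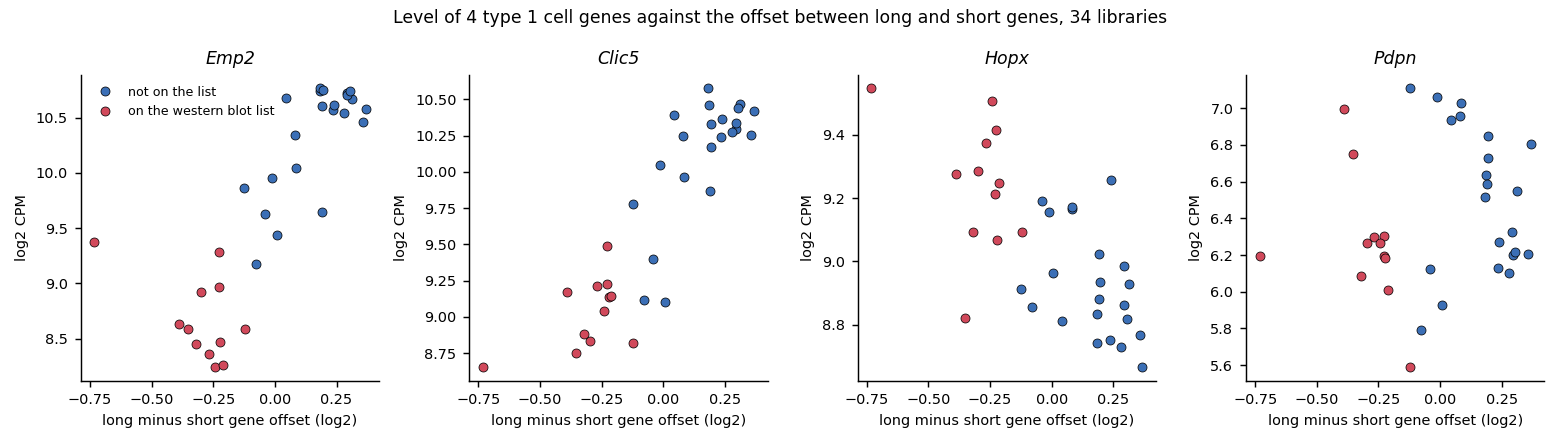
Log2 CPM (y axis) of Emp2, Clic5, Hopx and Pdpn against the offset between long and short genes (x axis, log2) in the 34 libraries, red for those on the western blot list. Over all libraries Emp2 and Clic5 climb with the offset (r = 0.83 and 0.89), Hopx descends (r = -0.70) and Pdpn has r = 0.13, while within the red points Emp2 has r = -0.51.

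The genes most like the mean of the 9 over the 34 libraries were Spock2 (r = 0.90), Slc44a2 (0.89), Popdc3 (0.88), Wnt3a (0.88) and Myrf (0.88). Pdpn was most like Rnase4 (0.88), Ager most like Gabarapl1 (0.78), Hopx most like Prkag1 (0.82), Aqp5 most like Phgr1 (0.84) and Rtkn2 most like Tbx3 (0.83). Cldn18 was most like Ctnna1 (0.93), Akap5 most like Slc44a2 (0.93) and Emp2 most like Sdc3 (0.98).

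Of 20 other type 1 cell genes, 14 fell and 2 rose in hypoxic against normoxic Cav1-KO (median log2 fold change -0.84, all genes 0.02), where 30.2% of all genes fell and 31.5% rose. Those with the smallest p were Ndnf (-1.84 ± 0.08), the type IV collagen gene Col4a3 (-2.04 ± 0.11) and the proteoglycan gene Spock2 (-0.97 ± 0.07). In the same comparison 9 of 15 type 2 cell genes fell and none rose (median -0.53), among them the phosphate transporter gene Slc34a2 (-2.06 ± 0.12). Of 9 genes of the transitional state between type 2 and type 1 cells 6 rose (median 0.58), led by the cell cycle inhibitor gene Cdkn1a (1.01 ± 0.09). Of 10 pan-epithelial genes 8 rose (median 0.34). Krt18 and Krt19 are on both of these lists, and Nkx2-1 is on the pan-epithelial list and that of type 1 regulators. Wwtr1, which encodes the coactivator TAZ, fell by 1.52 ± 0.11, and 5 of 10 type 1 regulators fell and 2 rose. Markers of other cells moved too, with 4 of 6 fibroblast, 3 of 6 aerocyte and 3 of 4 mesothelial genes lower and 5 of 7 airway genes higher. Of these lists the regulators and the aerocyte genes lay nearest to the shares over all genes. Summed general capillary markers were at 1131 to 1263 CPM in normoxic and 385 to 675 in hypoxic Cav1-KO. In Control they were at 837 to 1326 and 437 to 557. Summed lymphatic markers were at 440 to 632 and 195 to 285 CPM in Cav1-KO, and at 256 to 456 and 161 to 259 in Control. The part of any of these lists in the values of the 9 genes was not tested. The blot list divides this comparison as it does for those genes.

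In normoxic Cav1-KO against Control, 4 of the 20 other type 1 genes rose and 1 fell (median 0.36), where 5.16% of all genes rose and 8.02% fell, led by Ndnf (2.03 ± 0.26, adjusted p = 0.000838). Of 15 type 2 genes 4 rose, led by Hc (0.75 ± 0.13, adjusted p = 0.00341), the gene for complement C5. In normoxic Cav1-RC against Cav1-KO, where Pdpn rose, 0 of the 20 rose and Agrn, the gene for the basement membrane protein agrin, fell by 0.39 ± 0.08 (edgeR, adjusted p = 0.0127). Summed airway markers were at 14849 to 18929 CPM in normoxic Cav1-KO and 20692 to 77504 in normoxic Cav1-RC, with 4 of 7 higher, where 5.87% of all genes rose and 3.52% fell. Summed markers of 10 endothelial genes were at 4361 to 4727 CPM and 3603 to 4461. Of 7 caveolar genes, Cavin1 (0.57 ± 0.09, adjusted p = 0.00242) and Ehd2 (0.75 ± 0.12, adjusted p = 0.00269) rose in normoxic Cav1-KO against Control beside the loss of Cav1.

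**Figure D5:**
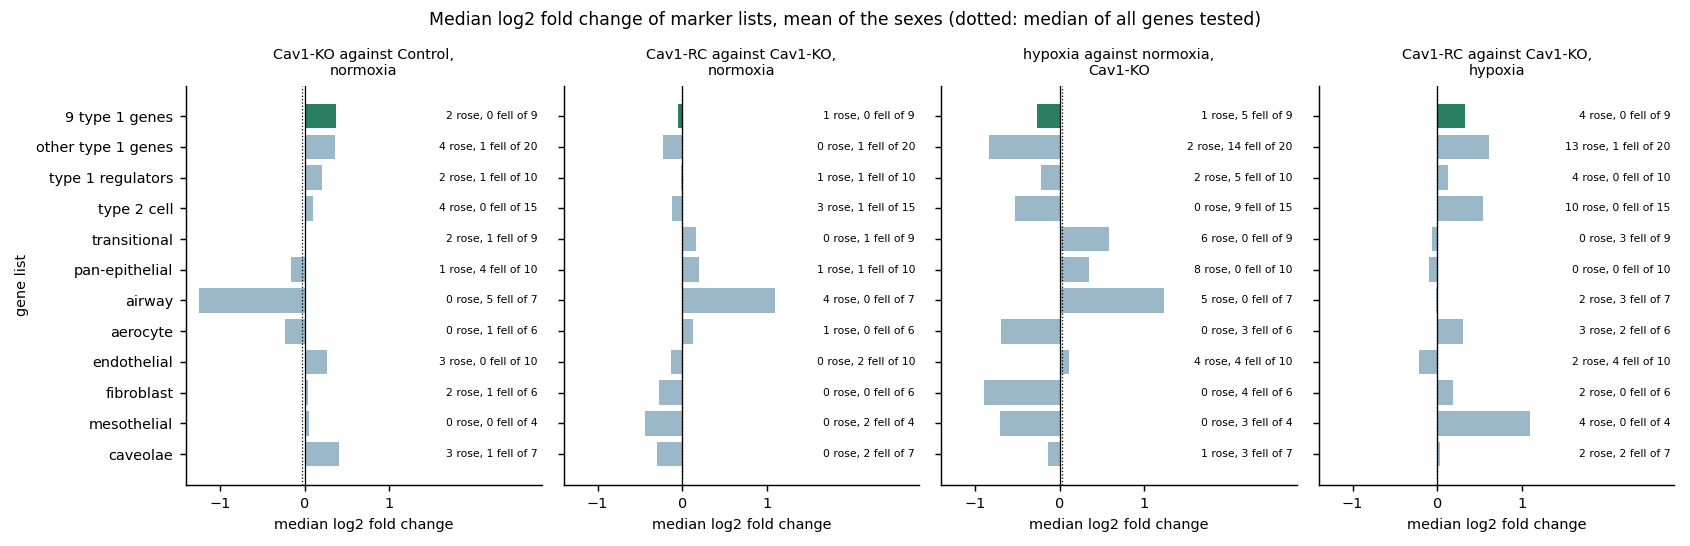
Median log2 fold change (x axis) of the 9 genes and of 11 other gene lists (y axis) in 4 comparisons over both sexes, with the number of genes of each list that rose or fell at an adjusted p under 0.05. The 9 genes lie at -0.27 and the other type 1 genes at -0.84 in hypoxic against normoxic Cav1-KO, and at -0.05 and -0.23 in normoxic Cav1-RC against Cav1-KO.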

How the data were processed

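Whole-lung RNA was sequenced by the authors, who aligned reads with HISAT2 2.0.5 to mm10 and counted reads per gene with featureCounts 1.5.0-p3 (per the submitters' processing notes) at default settings. The authors deposited counts per gene and FPKM, which divides those counts by gene length and by a library total. By default featureCounts does not use strand, although the libraries were directional. The 9 genes and the marker lists were chosen with earlier results of these data known. Groups came from the labels, and 1 library of uncertain identity was kept out of all comparisons.

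Counts were tested with edgeR 4.0.16 in R 4.3.3 (TMM scaling, filterByExpr, quasi-likelihood F test, Benjamini-Hochberg adjustment over all genes tested) within each sex and as the mean of the sexes. SE is the log2 fold change divided by the root of F. Called genes had an adjusted p under 0.05 and changed over 2-fold in either direction, as in the study's methods. CPM is from TMM-scaled totals. Levels between genes are compared in FPKM only. Alternatives were DESeq2 1.42.0 and its size factors, limma 3.58.1 on log2(FPKM + 1) and log2(FPKM + 0.1), no filter, single libraries left out, the blot list or the long-gene offset as a term, 1 fit over all 34 libraries, and subsets of libraries. The code was tested on simulated data. Genes named are all 9, Cav1, up to 3 per marker list with the smallest p, and the genes of highest correlation, of which that for Clic5 is not reported here. Promoters came from RefSeq on GRCm38.p6, with no entry for Rtkn2, and transcript lengths from GENCODE.

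Medians of the lists that the text above does not give were, in normoxic Cav1-KO against Control, 0.04 for 4 YAP targets, -0.95 for T cell genes, 0.65 for macrophage genes, 0.20 for general capillary genes and -0.38 for cardiac genes (log2 fold change).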

Additional observations from a re-analysis of the deposited data

Results flagged for a closer look

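The response to hypoxia differed between genotypes for 8 tests of 5 genes (edgeR, both sexes). Of all genes, 20.2% passed in Cav1-KO minus Control and 42.8% in Cav1-RC minus Cav1-KO. Cav1-KO minus Control was -0.57 for Pdpn, -0.74 for Cldn18, -1.20 for Akap5, -1.35 for Clic5 and -1.91 for Emp2 on the log2 scale. Cav1-RC minus Cav1-KO was 1.02 for Akap5, 1.25 for Clic5 and 2.02 for Emp2. Each compares the change from normoxia to hypoxia in one genotype with that in another. Every hypoxic Cav1-KO library is on the western blot list, so the response of Cav1-KO and the list cannot be told apart. With the list as a term the 2 values of Emp2 were -1.13 ± 0.33 and 0.36 ± 0.44. No group had 4 or more libraries, so single libraries far from their group were not tested.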

How the results depend on the processing

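Counts of the 9 genes called were recomputed under each alternative, and those not given here stayed within 1.5 times. With no fold threshold the number past an adjusted p of 0.05 was 1 for male Cav1-RC/Cav1-KO Nx, male Cav1-RC/Control Nx, male Hx/Nx in Control, male Hx/Nx in Cav1-RC, both sexes Cav1-RC/Cav1-KO Nx, 2 for male Cav1-KO/Control Nx, both sexes Cav1-KO/Control Nx, 3 for both sexes Cav1-KO/Control Hx, 4 for female Cav1-RC/Cav1-KO Hx, male Cav1-RC/Control Hx, female Hx/Nx in Cav1-KO, 5 for male Cav1-RC/Cav1-KO Hx, male Hx/Nx in Cav1-KO and 6 for both sexes Hx/Nx in Cav1-KO. In 1 fit over all 34 libraries the number called was 2 for female Cav1-KO/Control Hx, where 9.42% of all genes were called against 0.768% in the reported fit. By the DESeq2 Wald test the number called was 2 for female Cav1-KO/Control Hx (4.94% of genes). Within listed libraries the number called was 0 for both sexes Cav1-KO/Control Hx (0.98% of genes). By limma on log2(FPKM + 0.1) the number called was 0 for both sexes Cav1-KO/Control Hx (0.98% of genes, against 4.14% in the reported fit) and 1 for female Cav1-RC/Cav1-KO Hx (2.66% against 8.98%). By limma on log2(FPKM + 1) the number called was 0 for both sexes Cav1-KO/Control Hx (0.388%). With the long-gene offset as a term the number called was 0 for male Cav1-RC/Control Hx, female Hx/Nx in Cav1-KO, both sexes Cav1-KO/Control Hx and 1 for female Cav1-KO/Control Hx, female Cav1-RC/Cav1-KO Hx, male Cav1-RC/Cav1-KO Hx, male Hx/Nx in Cav1-KO, both sexes Cav1-RC/Cav1-KO Hx, both sexes Hx/Nx in Cav1-KO, response Cav1-KO minus Control, response Cav1-RC minus Cav1-KO. With no low-count filter the number called was 1 for female Cav1-KO/Control Hx (3.3% of genes). With the blot list as a term the number called was 0 for female Cav1-RC/Cav1-KO Hx, male Cav1-RC/Cav1-KO Hx, male Cav1-RC/Control Hx, female Hx/Nx in Cav1-KO, male Hx/Nx in Cav1-KO, both sexes Cav1-KO/Control Hx, both sexes Cav1-RC/Cav1-KO Hx, both sexes Hx/Nx in Cav1-KO, response Cav1-RC minus Cav1-KO and 1 for male Hx/Nx in Control, response Cav1-KO minus Control, response Cav1-RC minus Control. In the comparisons named 0.528% to 8.72% of all genes were called with the offset term and 0.0151% to 3.65% with the list term. Without the 3 libraries of discordant sex genes the number called was 2 for male Cav1-RC/Control Hx (11.8% of genes against 9.9%). Log2 fold changes that turned sign with the blot list as a term were -0.40 for Clic5 (female Cav1-RC/Cav1-KO Hx), -0.27 for Clic5 (male Cav1-RC/Cav1-KO Hx), -0.29 for Akap5 (male Cav1-RC/Control Hx), -0.44 for Clic5 (male Cav1-RC/Control Hx), -0.17 for Emp2 (male Cav1-RC/Control Hx), -0.044 for Hopx (female Hx/Nx in Cav1-KO), 0.040 for Akap5 (female Hx/Nx in Cav1-KO), 0.18 for Clic5 (female Hx/Nx in Cav1-KO), -0.34 for Clic5 (both sexes Cav1-RC/Cav1-KO Hx), -0.12 for Hopx (both sexes Hx/Nx in Cav1-KO), 0.13 for Cldn18 (both sexes Hx/Nx in Cav1-KO), 0.084 for Clic5 (both sexes Hx/Nx in Cav1-KO), -0.037 for Akap5 (response Cav1-RC minus Cav1-KO), -0.34 for Clic5 (response Cav1-RC minus Cav1-KO), and the list is nested within hypoxia in Cav1-KO. Without single libraries the number called was 0 to 4 for male Cav1-KO/Control Nx (changed without male Control 1), 0 to 2 for female Cav1-RC/Cav1-KO Nx (changed without female Cav1-RC 2, where 16.2% of genes were called against 0.1% with it), 0 to 4 for male Cav1-RC/Control Nx (changed without male Control 1, 6.14% of genes against 2.45%), 0 to 3 for female Cav1-KO/Control Hx (changed without female Control 1, 23.9% against 0.768%), 1 to 3 for female Cav1-RC/Cav1-KO Hx (changed without female Cav1-RC 3 or female Cav1-KO 1 or female Cav1-KO 2, 4.6% to 7.11% of genes against 8.98%), 1 to 4 for male Cav1-RC/Cav1-KO Hx (changed without male Cav1-KO 2, 17.8% against 14.8%), 1 to 2 for male Cav1-RC/Control Hx (changed without male Control 2, 11.8% against 9.9%), 1 to 3 for both sexes Cav1-RC/Cav1-KO Hx (changed without male Cav1-RC 1 or female Cav1-RC 3, 15% and 13.5% against 14.7%), and it stayed within 1.5 times in the other comparisons.

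The replicate numbers do not pair the mice, since the labels give no shared litter and r between same-numbered deviations was -0.17 to 0.56, over 0.1 in 11 of 49 pairs and in all 3 pairs of 0 of 18 comparisons. With the replicate block the number called was 2 for female Cav1-KO/Control Nx, in place of 0, while the share of all genes called went from 0.122% to 5.48%. Of the 44 single-gene results past an adjusted p of 0.05 within a comparison, the block kept 43, DESeq2 and no low-count filter kept all 44, limma on log2(FPKM + 1) 33 and on log2(FPKM + 0.1) 24, in a fit that has no count model. Of 52 single-gene results, the 8 responses to hypoxia included, 45 held in 1 fit over all 34 libraries, 27 with the long-gene offset as a term and 11 with the blot list as a term, where 27 no longer passed and 14 turned sign. Without the 3 libraries of discordant sex genes 8 of 12 held.

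With 2 or 3 mice a group, intervals are wide, and a p that misses the threshold does not show equal levels. The blot list covers all hypoxic Cav1-KO mice, so no fit separates it from hypoxia there without borrowing its effect from 3 female groups. The 3 libraries of discordant sex genes bear on the male Cav1-RC Nx and Control Hx values. The Cav1 count cannot show which cells express the transgene.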

Other observations

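The library of uncertain identity, which entered no comparison, had 30930450 counts. It is labelled as possibly from a female normoxic Cav1-KO mouse. The library's animal number is in the western blot source data, as a mouse of that sex, genotype and oxygen level. Its Emp2 level, 28.1 FPKM, lay below all 34 libraries with a group, of which the lowest had 34.9. The 12 listed libraries with a group had 34.9 to 75.9, and the 5 normoxic Cav1-KO libraries, none of them listed, had 169 to 195. The other 8 genes lay within the range of the 34, with Ager at 715, Hopx at 369.6, Pdpn at 37.4, Aqp5 at 125, Rtkn2 at 33.7, Cldn18 at 120.3, Akap5 at 23.0 and Clic5 at 51.9 FPKM. Cav1 was at 1.34 FPKM.

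T cell markers were lower in normoxic Cav1-KO than in Control, with 6 of 7 genes falling (median log2 fold change -0.95, where 8.02% of all genes fell), and 4 of 7 were higher in normoxic Cav1-RC than in Cav1-KO (median 0.60, where 5.87% of all genes rose). Of 7 airway markers 5 fell in the former comparison and 4 rose in the latter, with the ciliated cell gene Ccdc153 at -2.17 ± 0.25 and 2.00 ± 0.23 and Foxj1, a regulator of ciliated cells, at -1.13 ± 0.15 and 1.12 ± 0.21. Both comparisons share the Cav1-KO mice.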
